A study of Mus musculus with 2 samples.

Results

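The peaks of the transcription factor p53 around 6 genes of the p53 pathway were examined in embryonic mouse kidney, taken at stage E15.5 (E for embryonic day). The genes were Cdkn1a, Mdm2, Ccng1, Trp53, Bax and Trp53inp1. A window of 60 to 100 kb was set around each gene in the mm9 genome build, and a peak belonged to a gene's window if its midpoint lay inside. These windows held 16 of the 7893 peaks in the authors' list. The rule that picks the members uses gene positions and no measured value, but it was set with earlier results of these data known.

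The study used chromatin immunoprecipitation followed by sequencing (ChIP-seq), in which DNA fixed to a protein is recovered with an antibody and sequenced. There was 1 p53 library, immunoprecipitated with an anti-p53 antibody, and 1 library of input DNA, which is chromatin taken without an antibody. Both were from kidney of wild-type C57BL embryos, with no treatment named in the labels, and the number of embryos behind each is not given there. The values below are from the peak list of the p53 library, and no peaks of the input were analysed here. A single p53 library gives no spread between replicates, so values are printed without an error and no test was made. A peak list holds no expression values, so the tissue could not be checked against marker genes. The list has 1 score per peak, given by the peak caller. Its scale is not stated in the file, so scores, and scores divided by peak width, serve only to describe and compare peaks within this list.

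p53 binds DNA as a tetramer, and its consensus site is a pair of similar half-sites. When DNA is damaged or cells are stressed, p53 is stabilised and switches on genes that stop the cell cycle, start apoptosis or repair DNA. Several of its targets feed back on it. Mdm2 encodes the ubiquitin ligase that marks p53 for destruction, and loss of Mdm2 is lethal to the mouse embryo unless p53 is also lost. In the kidney, p53 has been studied in nephron progenitors and in the differentiation of the renal epithelium.

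RefSeq promoters from 250 bases before to 50 after the annotated start were at hand for 5 of the 6 genes, as 6 promoters, in the GRCm38.p6 build. Trp53inp1 was the gene without one. These were scanned for the p53 half-site consensus, which reads the same on both strands, and for 2 half-sites adjoining without a spacer, 20 letters in all. The sequences below are upstream stretches holding the closest pair, shown because they are the closest matches to a p53 site within the scanned promoters. Capitals mark the pair.

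Cdkn1a, chr17:29090729-29090953, plus strand: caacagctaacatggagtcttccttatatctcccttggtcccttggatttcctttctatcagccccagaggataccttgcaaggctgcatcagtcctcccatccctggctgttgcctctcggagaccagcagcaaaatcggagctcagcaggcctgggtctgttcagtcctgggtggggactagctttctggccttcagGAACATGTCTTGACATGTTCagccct
Ccng1, chr11:40755312-40755536, minus strand: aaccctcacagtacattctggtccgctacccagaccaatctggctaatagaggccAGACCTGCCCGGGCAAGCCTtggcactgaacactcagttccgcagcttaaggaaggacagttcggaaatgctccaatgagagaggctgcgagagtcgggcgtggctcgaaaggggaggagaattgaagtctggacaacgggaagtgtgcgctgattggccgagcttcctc
Trp53, chr11:69580274-69580313, plus strand: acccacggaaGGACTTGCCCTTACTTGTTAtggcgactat
Bax, chr7:45467080-45467119, minus strand: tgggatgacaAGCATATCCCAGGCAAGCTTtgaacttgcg

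The pair in the Cdkn1a promoter matched the consensus with 1 of 20 letters mismatched, and it ran from 51 to 32 bases before the upstream of the gene's 2 annotated starts. The pair in the Ccng1 promoter also had 1 mismatch and ran from 195 to 176 bases before the start. Among all 32851 promoters of the table, 29 (0.0883%) held a pair with so few. The closest pairs in the Trp53 and Bax promoters each had 3 mismatches, which 6.29% of all promoters matched or bettered. Those of Mdm2 and of the downstream Cdkn1a start had 5 mismatches, a number that 76.6% of promoters matched or bettered. Sequence outside the scanned promoters, and pairs with a spacer, were not examined, so a site elsewhere at any of these genes would be missed. An exact half-site was found in 5 of the 6 promoters, all but the downstream one of Cdkn1a, compared with 8.36% of all promoters. A match is a description of the letters and not evidence of binding. These positions are in GRCm38.p6 and the peaks are in mm9, so no peak was placed on a promoter, exon or intron here.

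Each of the 6 windows held at least 1 peak. Trp53 had 5, Bax 4, Cdkn1a, Mdm2 and Trp53inp1 2 each, and Ccng1 1. When each chromosome was divided into consecutive windows between its outermost peaks, 14.2% of windows of 60 kb, 17.6% of 80 kb, 19.1% of 90 kb and 20.6% of 100 kb held a peak. Such windows also cover stretches without genes, whereas the 6 were placed on genes, and the share among windows placed on genes was not analysed here. In the whole list 47.6% of peaks scored 100 or more, and 8 of the 16 did. A score of 300 or more was reached by 4.87% of the list and by 0 of the 16. With 16 peaks, both counts were near the shares of the list.

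**Figure D1:**
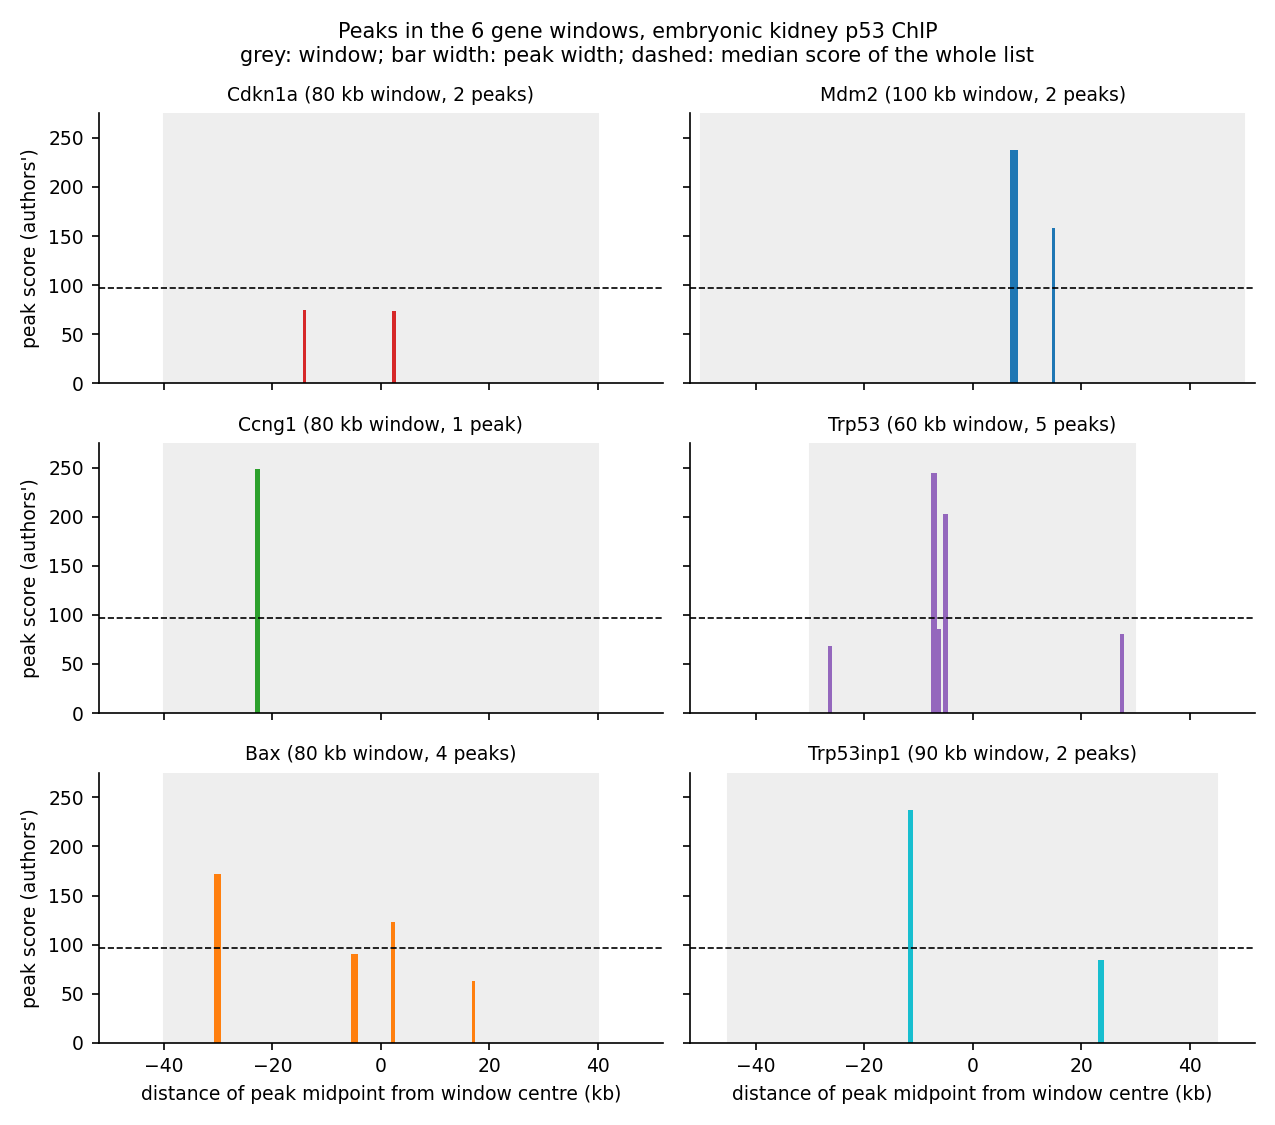
Score of each peak (vertical axis) against the distance of its midpoint from the centre of its gene window in kb (horizontal axis), with bar width equal to peak width and the window in grey. Both Cdkn1a bars stand below the dashed median of the list, 96.8, while the highest bars of Ccng1, Trp53, Mdm2 and Trp53inp1 lie between 236.89 and 248.44.

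The highest peaks of 4 windows had nearly the same score. It was 248.44 for Ccng1 (rank 588 of 7893), 244.16 for Trp53 (rank 607), 238 for Mdm2 (rank 651) and 236.89 for Trp53inp1 (rank 658). These 4 lay in the top 7.45 to 8.34% of the list, and 71 peaks of the list fell in the score range they span. The Bax window followed with 171.51 (rank 1394, top 17.7%). The Cdkn1a window was last, at 75.07 (rank 5717), a score that 72.5% of the list reached or passed. With 1 library the order of these neighbouring values cannot be given an error.

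**Figure D2:**
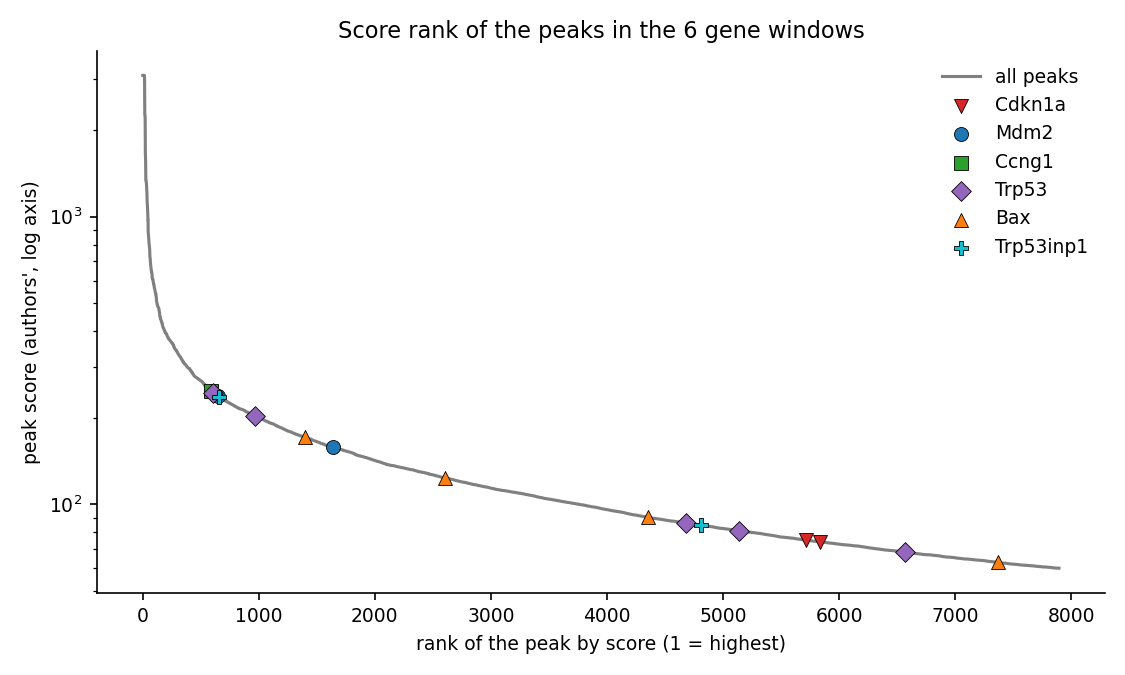
Score of every peak (log axis) against its rank in the list, with the 16 window peaks marked by gene. The highest peaks of Ccng1, Trp53, Mdm2 and Trp53inp1 sit together at ranks 588 to 658, and the Cdkn1a peaks lie at ranks 5717 and 5834.

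Mdm2 is the negative regulator at the centre of the p53 feedback loop. Its window on chromosome 10, from 117090000 to 117190000, held a peak from 117146925 to 117148342 with a score of 238 and a width of 1418 bp. Only 11.8% of the list was at least as wide. The other peak, from 117154630 to 117155106, scored 158.08 (rank 1635) in 477 bp, and 92.9% of the list was at least as wide. For its width the score of this narrow peak was high, at 33.1 per 100 bp compared with a median of 12.2 over the list, and only 3.17% of peaks reached that ratio. The midpoints of the pair were 7.23 kb apart. Beyond them the nearest peaks were 245 kb away on the lower side and 75.1 kb away on the higher side. Over the list, the distance to the nearest other peak had a median of 43.5 kb and an upper quartile of 111 kb. On GRCm38.p6 the protein-coding neighbours of Mdm2 are Cpm and Slc35e3.

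Trp53 encodes p53 itself. Its window on chromosome 11, from 69370000 to 69430000, was the shortest and held the most peaks, 8.33 per 100 kb, compared with 0.587 per 100 kb over the chromosome. Of consecutive 60 kb windows, 0.0918% (39 of 42478) held at least 5 peaks. Among only those that held any peak, the share was 0.647%. Both shares count peaks as listed, and no such share was computed for merged peaks. The lead of Trp53 over Bax rested on how peaks were split and counted: with peaks up to 1 kb apart merged Trp53 had 3 and Bax 4, with the window edges moved in by 10 kb both had 3, and among peaks scoring 100 or more both had 2, as did Mdm2.

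The centre of the Trp53 group was a run of 3 peaks within 3070 bp. The first, from 69392326 to 69393459, scored 244.16 in 1134 bp. The second, from 69393505 to 69394223, scored 86.09 (rank 4681) in 719 bp. The third, from 69394481 to 69395395, scored 202.84 (rank 967) in 915 bp. The low peak thus lay between a pair of higher ones, with gaps of 45 and 257 bp between their edges. Together they covered 90.2% of the stretch. In the whole list 6 of 7853 runs of 3 consecutive peaks (0.0764%) fitted in 3070 bp or less, and the median run spanned 247 kb. Merging peaks up to 1 kb apart turned the 3 into 1 region, which ranked 60 by width among 7578 regions, and 21 regions (0.277%) joined 3 or more peaks.

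The outer peaks of the Trp53 window were weak. One, from 69373263 to 69374009, scored 68.31 (rank 6566), and the other, from 69427232 to 69427895, scored 80.98 (rank 5133). Each was nearer to a peak outside the window than to one inside, at 12.8 and 18.96 kb. The peak beyond the higher edge, from 69445644 to 69447408, scored 234.41, within the range of the window's own high peaks and well above its outer ones. Gene neighbours here are Wrap53, which lies head to head with Trp53 on the opposite strand and encodes a telomerase and Cajal body protein, and Atp1b2, a sodium pump subunit.

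Ccng1 encodes cyclin G1, a p53 target that recruits a phosphatase to Mdm2 and so takes part in the same loop. Its window on chromosome 11, from 40530000 to 40610000, held a single peak, from 40546727 to 40547793. This peak had the highest score of the 16, 248.44, in 1067 bp, or 23.3 per 100 bp (7.64% of the list reached that ratio). On its own, more peak-dense chromosome it stood at rank 71 of 696. It lay 22.7 kb below the centre of the window and 38.9 kb from the nearest other peak, on the lower side. On the higher side no peak followed for 2795 kb. The gene next to Ccng1 on the lower side is Nudcd2, and which of these genes the peak lies closer to was not analysed here.

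Trp53inp1 encodes a stress-induced nuclear protein that aids p53 phosphorylation and autophagy, and p53 in turn activates it. In its window on chromosome 4, from 11050000 to 11140000, a peak from 11083095 to 11083955 scored 236.89 in 861 bp. At 27.5 per 100 bp its ratio of score to width was in the top 4.87% of the list, while its width was near the list median. The other peak, from 11118037 to 11119212, showed the reverse, with a score of 84.59 (rank 4811) in 1176 bp. Its ratio of 7.19 was reached by 91.9% of the list. The midpoints were 35.1 kb apart. One neighbour of Trp53inp1 is Ccne2, which encodes cyclin E2 and drives entry into S phase, and the window may hold it.

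Cdkn1a encodes p21, the inhibitor of cyclin-dependent kinases through which p53 arrests the cell cycle. Its window on chromosome 17, from 29190000 to 29270000, held 2 peaks, both of them low in score. The first, from 29215642 to 29216277, scored 75.07 in 636 bp. The second, from 29232065 to 29232877, scored 74.09 (rank 5834) in 813 bp. On chromosome 17 they ranked 307 and 317 of 406 by score, so the low position was not one of the whole list alone. For its width the first peak stood less low, but the second did not. The first had 11.8 per 100 bp, near the list median of 12.2, and 53.1% of the list reached that ratio. The second had 9.11, which 77.9% reached, compared with 74.0% that reached its score. The 2 peaks were 16.5 kb apart. No peak scored 100 or more in the window, the only one of the 6 of which this was true. The nearest higher peak, from 29168575 to 29170046, scored 231.11 and lay 20.7 kb outside the lower edge, on the side of Srsf3, a splicing factor gene. On the other side the next peak was 142 kb from the second Cdkn1a peak.

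The upstream Cdkn1a promoter, but not the downstream one, thus held one of the closest matches to the p53 site among all promoters. The Cdkn1a window held the lowest top score of the 6. The window of Ccng1, whose promoter matched as closely, had the highest, by a margin that cannot be given an error. A top score can come from a peak anywhere in its window, and no peak was placed on a promoter. Whether any of these scores belongs to a matched site was therefore not tested. With 5 genes and different builds, no relation between promoter letters and top score was computed.

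Bax encodes a protein that permeabilises the outer mitochondrial membrane in apoptosis. Its window on chromosome 7, from 52680000 to 52760000, held 4 peaks spread over 48.0 kb. From the lower side, they scored 171.51 (52689257 to 52690579), 90.2 (52714478 to 52715741), 123.35 (52721837 to 52722693) and 62.9 (52736751 to 52737276). The strongest was the one farthest from the window's centre, 30.1 kb below it, and the last was the weakest of the 16, at rank 7369. The second was wide for its score, with 1264 bp and a ratio of 7.14 per 100 bp that 92.2% of the list reached. The middle pair was 7.16 kb apart. Of consecutive 80 kb windows 0.483% held at least 4 peaks, or 2.74% of those with any. Ftl1, which encodes the ferritin light chain, and Dhdh are the genes next to Bax, and which gene each peak lies closest to was not analysed here.

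**Figure D3:**
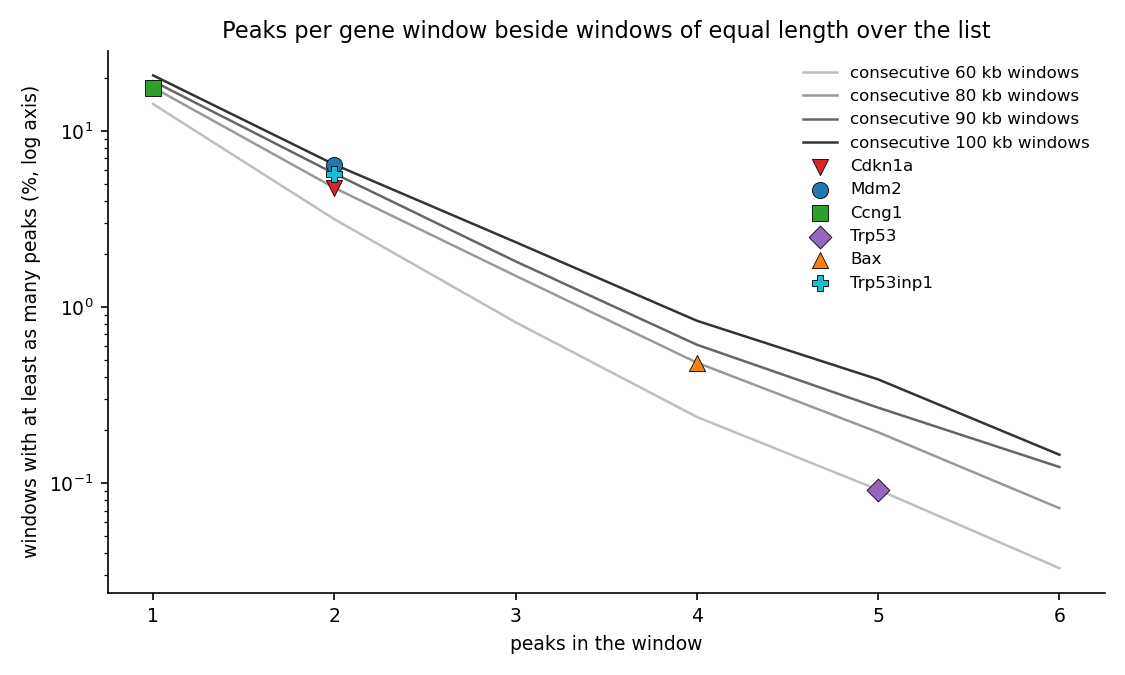
Percentage of consecutive windows over the list (log axis) that held at least a given number of peaks, with a line for each window length and a marker for each gene window at its own length. Trp53 with 5 peaks and Bax with 4 are at 0.0918 and 0.483%, while Cdkn1a, Trp53inp1 and Mdm2 with 2 are at 4.75, 5.72 and 6.43%, and Ccng1 with 1 is at 17.6%.

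By width the 16 peaks lay close to the middle of the list. Their median was 859 bp, with extremes of 477 and 1418 bp, compared with a median of 869 bp and quartiles of 660 and 1142 bp over the list. Their median score was 107, compared with 96.8. The highest peaks of the 6 windows had a median width of 1100.5 bp and a median score of 237. They were picked by score, so their medians cannot be compared with those of the list. The spread among the 16 was wide, with scores from 62.9 to 248.44 and ratios of score to width from 7.14 to 33.1 per 100 bp.

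**Figure D4:**
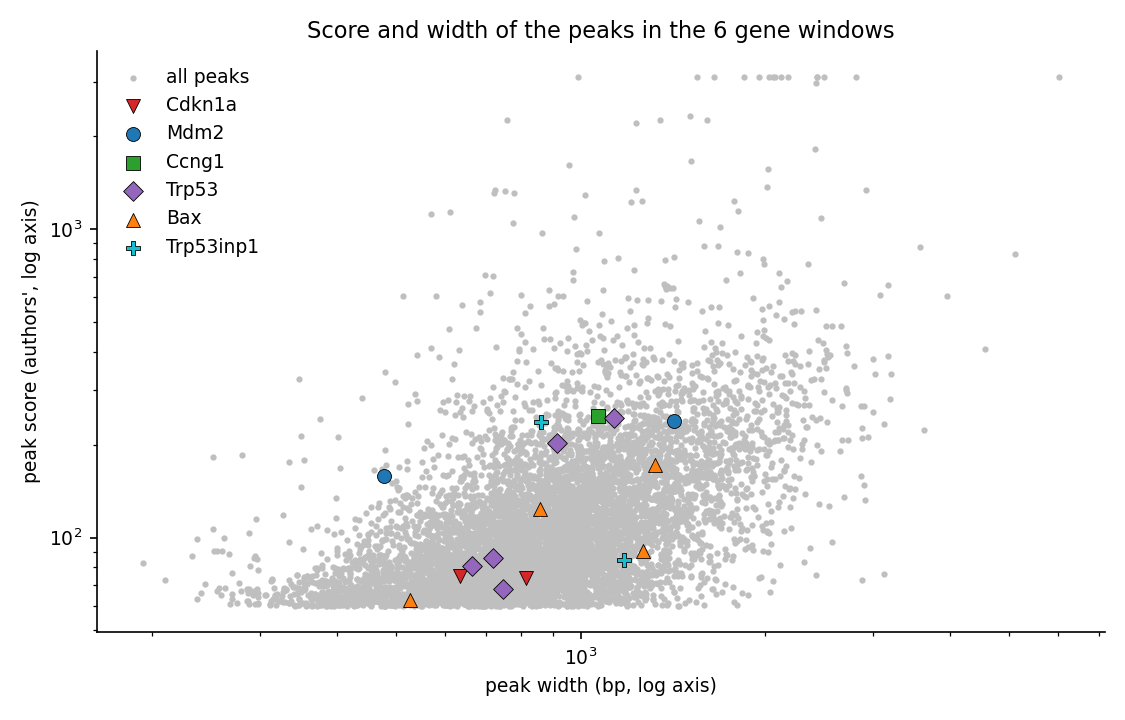
Score against width of every peak (grey, both axes log), with the 16 window peaks marked by gene. The narrow Mdm2 peak (477 bp, score 158.08) lies at the upper left edge of the cloud, and the wide, low peaks of Bax (1264 bp, 90.2) and Trp53inp1 (1176 bp, 84.59) lie toward its lower right.

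Other peaks were close by at most of these genes. The median midpoint distance to the nearest other peak was 13.8 kb over the 16, compared with 43.5 kb over the list. For 7 of the 16, all in the Mdm2, Trp53 and Bax windows, another peak lay within 10 kb, compared with 19.8% of the list. For 3, all in the Trp53 run, it lay within 2 kb, compared with 7.53%. The nearest peak was most often in the same window, so these distances are not independent of the peak counts. From the highest peak of each window the distance was 971.5 bp for Trp53, 7.23 kb for Mdm2, 16.5 kb for Cdkn1a, 25.2 kb for Bax, 35.1 kb for Trp53inp1 and 38.9 kb for Ccng1. All 6 were below the list median.

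**Figure D5:**
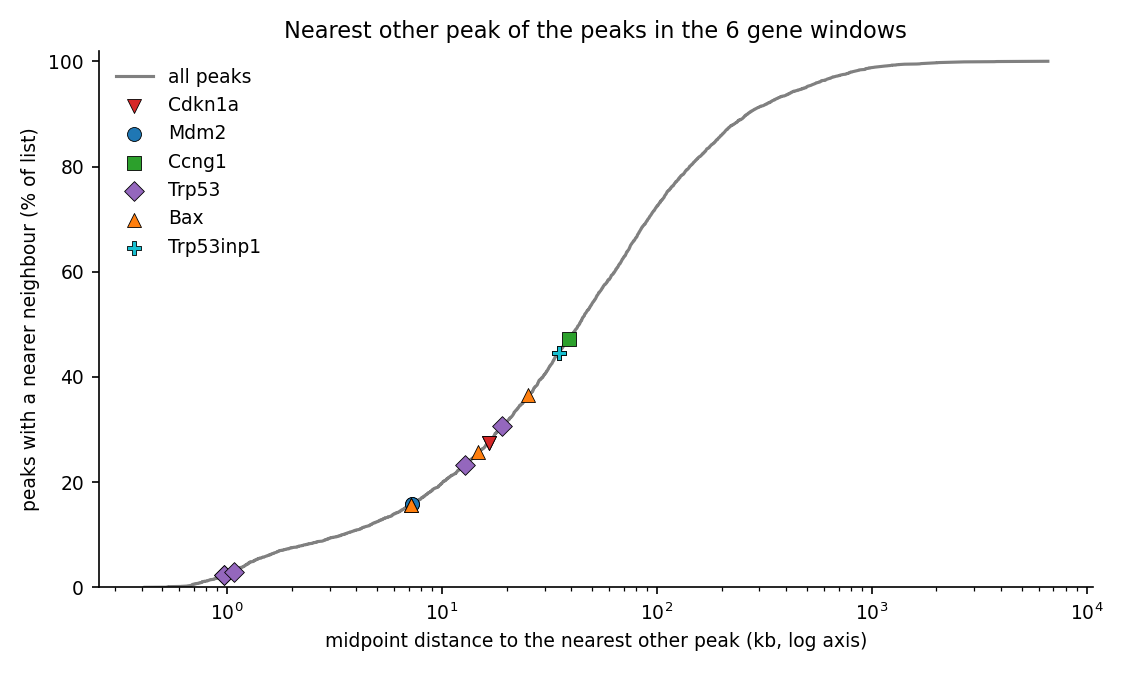
Percentage of peaks with a nearer neighbour against the midpoint distance to the nearest other peak in kb (log axis), for all peaks (line) and the 16 window peaks (markers). All markers lie left of the list median of 43.5 kb, from 971.5 bp in the Trp53 run to 38.9 kb at Ccng1.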

How the data were processed

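Peaks were called with MACS in the mm9 build, per the submitters' processing notes and, for MACS, per the file headers. Not given in the sources used here are the aligner, which MACS version and settings were run, how duplicates were handled and whether the input served as control. The deposited score, the authors' own value per peak, has no stated scale, and how it relates to read number or enrichment was not tested. The list gives no read counts, so depth is unknown and no interval on a peak can be given.

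From the list were computed ranks (tied peaks share the best rank), widths, midpoint distances and counts per window. Starts are printed 1-based. All 6 genes and all 16 peaks in their windows are named, and of other peaks those next to a window. Windows and genes were chosen with earlier results of these data known. The calculations were tested on simulated data, and 20 of 20 simulated lists were recovered. Python 3.11.15, numpy 2.4.6 and pandas 2.3.3 were used. A planned count of peaks at other p53 pathway genes needed an mm9 annotation and was not run. Genes next to each other were named by their order in RefSeq GRCm38.p6, with no coordinates transferred.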

Additional observations from a re-analysis of the deposited data

How the results depend on the processing

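Each of the 6 windows kept a peak when any overlap counted, when peaks within 1 kb were merged and when the window edges moved by 10 kb either way. At a score of at least 100, 5 windows kept one and the number of peaks fell from 16 to 8, by construction of the filter. Under the other settings it was 13 to 18. Ranks within the chromosome or among merged peaks moved no window's top percentage by over 1.5 times. Ordering by score divided by width moved it from 8.25 to 21.1% for Mdm2, from 17.7 to 43.3% for Bax and from 8.34 to 4.87% for Trp53inp1. For Cdkn1a it went from 72.5 to 53.1%, which is within 1.5 times. With other peaks below 100 left out, the nearest was 46.6 kb from the highest Cdkn1a peak (itself below 100 and kept as the point measured from), 2.05 kb from that of Trp53 and 120 kb from that of Trp53inp1. No paired analysis was possible because there was 1 library of each kind. Whether deeper sequencing would raise the low-scoring Cdkn1a peaks cannot be judged.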
